A study of Mus musculus with 6 samples.

Results

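The genes described here are 38 genes of hepatic stellate cells and of the extracellular matrix, taken by symbol from a table of 24034 genes measured in mouse liver. All 38 were found in the table. The 6 libraries came from livers of C57BL/6 mice aged 25 weeks. Of these, 3 were wild type (WT, genotype lncenc1wt/wt) and 3 carried the 3A allele of Lncenc1, a long non-coding RNA gene, in 2 copies (HO, genotype lncenc13A/3A), described by the submitters as knockout mice. The labels name no treatment and do not describe what the 3A allele alters. The RNA of Lncenc1 was not analysed here, and group membership was taken from the labels alone. Whether replicates are separate animals is not stated, and the p-values below then cover only the spread among these samples, which may be technical.

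Stellate cells lie between hepatocytes and sinusoidal endothelium. In the quiescent state they store vitamin A as retinyl esters, made by the enzyme Lrat, and they secrete reelin and hepatocyte growth factor. On injury they turn into contractile cells that express smooth muscle actin and secrete fibrillar collagens, driven by TGF-beta and PDGF. The matrix of a healthy liver is sparse: fibrillar collagens lie mostly around portal tracts and vessels, a thin sheet of collagen IV, laminin and collagen XVIII lines the sinusoids, and small proteoglycans such as decorin bind the fibrils.

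Values are FPKM, fragments scaled for transcript length and for library size. They summed to 495570 to 518218 per library, and depth read from the spacing of low values was 19100000 to 24600000 read equivalents. Differences are HO minus WT on the scale of log2(FPKM + 0.5), which understates the change of low genes, and were tested with limma with Benjamini-Hochberg adjustment over 13250 genes whose mean was 0.5 FPKM or more. The median log2 difference of all tested genes was -0.09, and with median-of-ratios scaling it was 0.01, so differences of the members are to be read against a general shift of about that size. Of the 38 members 32 were tested, and no tested member had a group mean under 0.5 FPKM. The 6 others (Col5a2, Lama2, Fbln1, Fbn1, Lox and Timp1) were too low.

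No member passed the adjusted threshold of 0.05 in limma, where 0.325% of all tested genes rose and 0.815% fell (43 and 108 genes, against 70 and 64 with median-of-ratios scaling). At an unadjusted p under 0.05, 12 of the 32 members (37.5%) were lower in HO and 1 was higher, beside 16.5% lower and 5.01% higher among all tested genes. All HO values lay below all WT values in 15 of the 32 (46.9%), beside 21.4% of all tested genes, and above them in 1 member, beside 6.42%. Separation, here and below, was read on the deposited FPKM only, so genes with a narrow gap may overlap under another scaling. The median log2 difference of the 32 was -0.26, with 27 negative values, and it was -0.17 with 23 negative values under each of the 2 other scalings (median-of-ratios and quantile). With array weights, an alternative that lets libraries count unequally, 5 members fell (Col1a2, Col3a1, Col14a1, Dcn and Sparc), where 5.22% of all tested genes fell in the same fit. Under the 15 other alternatives run on these calls no member passed. In bulk liver, fewer cells of a type and less RNA per cell cannot be told apart.

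Fibrillar collagens form the tensile fibres of scar and vessel walls, and the group had the lowest median difference of the 8 groups by role. All 5 genes of this group had every HO value below every WT value, with HO means 46.9% to 58.7% below the WT means. Col5a2 was not tested. All 4 tested genes were separated in this way, beside 21.4% of all tested genes. Col3a1, the chain of type III collagen, was measured at 12.6, 6.84 and 6.81 FPKM in WT replicates 1 to 3 and at 4.69, 3.21 and 2.93 in HO. WT replicate 1 was the highest library and HO replicate 3 the lowest. The means were 8.74 ± 3.32 and 3.61 ± 0.948 (SD, n = 3), a log2 difference of -1.14 ± 0.27 (SE, adjusted p = 0.0842 by limma, with 0.0413 to 0.207 over the alternatives).

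Type I collagen, the most abundant fibre protein of the body, is built from the products of Col1a1 and Col1a2. Col1a1 stood at 4.5, 2.0 and 2.75 FPKM in WT and at 1.75, 1.29 and 1.05 in HO. For Col1a2 the libraries gave 5.87, 4.09 and 3.43 in WT and 2.65, 1.94 and 2.24 in HO. WT replicate 1 was again the highest for both genes, and the groups did not overlap. The log2 differences were -0.90 ± 0.27 for Col1a1 (adjusted p = 0.126 by limma) and -0.82 ± 0.20 for Col1a2 (adjusted p = 0.0904 by limma). The ratio of Col1a1 to Col1a2 FPKM ran from 0.489 to 0.801 in WT and from 0.468 to 0.667 in HO, so the balance of the 2 chains overlapped between the groups.

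Type V collagen, which starts fibril assembly and sets fibril width, was the scarcest of the group. Col5a1 was at 1.55, 1.14 and 1.14 FPKM in WT and 0.839, 0.578 and 0.613 in HO, a log2 difference of -0.59 ± 0.17 (adjusted p = 0.113 by limma). Col5a2, below the filter, was at 0.853, 0.648 and 0.407 in WT and 0.325, 0.181 and 0.307 in HO. When no filter was applied its adjusted p = 0.222 in limma. Summed over the 5 genes, fibrillar collagen FPKM was 25.3, 14.7 and 14.5 in WT and 10.3, 7.20 and 7.14 in HO. WT replicate 1 therefore stood above the other WT libraries, and it was the highest library in each of the 5 genes. The median log2 difference of the 4 tested genes was -0.86 with all libraries and -0.63 without WT replicate 1. HO replicate 1, which stood apart from the other libraries on the second principal component of all tested genes, had the highest HO value in all 5, and without it the median was -0.98.

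**Figure D1:**
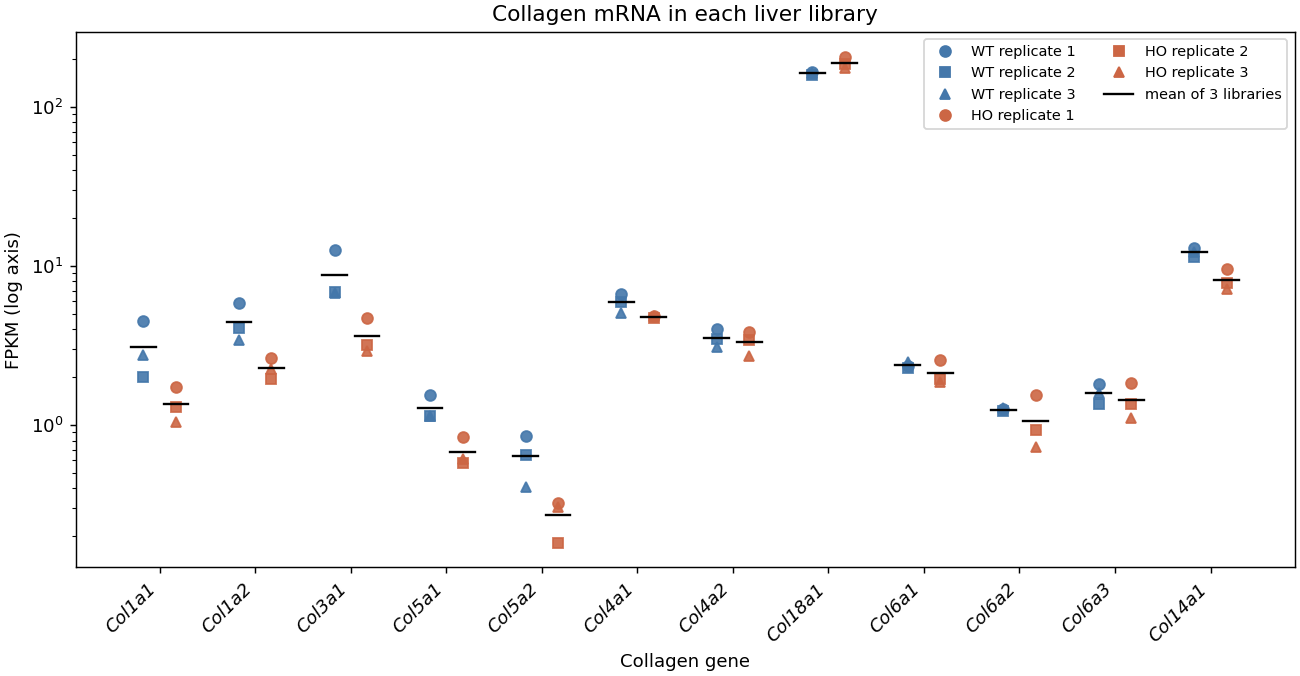
FPKM of the 12 collagen genes on a log axis, with 3 WT libraries (blue) and 3 HO libraries (orange) per gene, a symbol for each replicate number and a bar at the mean of 3. The 5 fibrillar genes at the left separate by group, the collagen VI genes overlap, and Col18a1 is the only one with HO above WT.

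Col3a1 (chromosome 1, 45311538 to 45349706, plus strand) and Col5a2 (chromosome 1, 45374321 to 45503282, minus strand) are neighbours 24.6 kb apart, while Col1a1 lies on chromosome 11 (94936224 to 94953042), Col1a2 on chromosome 6 (4504814 to 4541544) and Col5a1 on chromosome 2 (27886425 to 28039514, mm10). The group is thus spread over 4 chromosomes. Since all 5 genes separated the groups in the same direction, their start regions are shown for comparison. The windows run from 250 bases before to 50 after a start site in RefSeq (GRCm38.p6), which held windows for 28 of the 38 members and for Col1a2, Col3a1 and Col5a1 of this group. Capitals mark exact matches on either strand of the TATA box (TATAAA), the CCAAT box (CCAAT) and the GC box (GGGCGG), none of which overlap here. The windows lie at chr6:4505368-4505667, chr1:45311288-45311587 and chr2:27886175-27886474, all on the plus strand.
Col1a2: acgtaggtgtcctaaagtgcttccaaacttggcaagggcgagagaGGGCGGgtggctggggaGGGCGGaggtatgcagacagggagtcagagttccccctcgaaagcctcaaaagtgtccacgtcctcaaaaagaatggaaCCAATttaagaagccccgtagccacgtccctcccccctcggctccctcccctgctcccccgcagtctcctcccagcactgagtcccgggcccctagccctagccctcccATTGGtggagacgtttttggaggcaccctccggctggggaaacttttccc
Col3a1: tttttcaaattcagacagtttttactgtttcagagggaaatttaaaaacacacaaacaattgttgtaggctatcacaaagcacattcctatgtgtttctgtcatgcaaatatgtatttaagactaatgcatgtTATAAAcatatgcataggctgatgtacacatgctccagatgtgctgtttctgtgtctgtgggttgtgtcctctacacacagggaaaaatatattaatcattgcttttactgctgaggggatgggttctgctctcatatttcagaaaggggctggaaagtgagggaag
Col5a1: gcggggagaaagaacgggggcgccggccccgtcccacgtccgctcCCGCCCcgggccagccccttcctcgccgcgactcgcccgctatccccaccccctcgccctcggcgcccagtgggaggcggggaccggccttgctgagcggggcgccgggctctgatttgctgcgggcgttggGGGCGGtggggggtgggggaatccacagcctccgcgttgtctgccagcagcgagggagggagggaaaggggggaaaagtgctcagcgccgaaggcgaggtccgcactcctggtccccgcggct

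The 3 windows differ in these letters. Col1a2 holds 2 CCAAT boxes and 2 GC boxes, Col3a1 holds 1 TATA box, 117 bases before its start, and Col5a1 holds 2 GC boxes. Among 32851 windows of all genes, 13.6% hold the TATA letters, 37.4% the CCAAT letters and 35.7% the GC letters. Such matches describe the sequence and show no binding.

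Genes of the basement membrane, the sheet on which endothelium and epithelium rest, were less uniform. Collagen IV is its scaffold. Col4a1 was at 6.66, 5.97 and 5.07 FPKM in WT and 4.86, 4.69 and 4.84 in HO. The groups did not overlap, although WT replicate 3 lay close to the HO values, and the log2 difference was -0.27 ± 0.12 (adjusted p = 0.266 by limma), or -0.16 with median-of-ratios scaling. Its partner chain Col4a2 was at 4.01, 3.49 and 3.12 in WT and 3.85, 3.45 and 2.74 in HO, and the groups overlapped (log2 difference -0.08, 95% interval -0.44 to 0.29). Its sign turned positive with either scaling alternative.

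Collagen IV offers a contrast in gene arrangement, since Col4a1 and Col4a2 lie head to head on chromosome 8 (11198423 to 11312826 on the minus strand and 11312805 to 11449287 on the plus strand). Their annotated starts overlap by 22 bases, and their RefSeq windows share the 78 bases at chr8:11312777-11312854, shown on the plus strand with a GC box in capitals.
Col4a1 and Col4a2: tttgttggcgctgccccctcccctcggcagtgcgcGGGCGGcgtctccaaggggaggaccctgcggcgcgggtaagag

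Lamb1, a laminin chain, was at 1.91 ± 0.163 FPKM in WT and 1.40 ± 0.251 in HO without overlap (adjusted p = 0.239 by limma). The laminin gene Lama2 was at 0.115 to 0.175 in WT and 0.0414 to 0.103 in HO, and was not tested. Col18a1 encodes collagen XVIII, the precursor of endostatin, and is known to be made by hepatocytes as well as by vessels. It stood at 166, 158 and 163 FPKM in WT and at 207, 185 and 176 in HO, more than every other collagen member in each library. All HO values were above all WT values, but by a small margin, and the log2 difference was 0.22 ± 0.09 (adjusted p = 0.212 by limma, 95% interval 0.01 to 0.43), or 0.33 with median-of-ratios scaling. Col18a1 made up most of the summed FPKM of the 12 collagens, which was 221, 198 and 204 in WT and 241, 212.5 and 202 in HO and so overlapped between the groups.

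Collagen VI forms beaded microfibrils around cells. Its 3 genes overlapped between the groups. Col6a1 was at 2.37 ± 0.103 FPKM in WT and 2.12 ± 0.385 in HO, Col6a2 at 1.25 ± 0.0282 and 1.07 ± 0.419, and Col6a3 at 1.59 ± 0.237 and 1.44 ± 0.369 (adjusted p = 0.612, 0.623 and 0.743 by limma). HO replicate 1 was the highest HO library for each of them and HO replicate 3 the lowest. The 95% intervals of their log2 differences ran from -0.67 at the lowest to 0.30 at the highest, and that of Col6a2 takes in the estimate for Col5a1. Col14a1, a collagen that decorates fibrils, was also lower in HO. Its HO mean was 32.9% below its WT mean, against 46.9% to 58.7% for the fibrillar genes. Col14a1 was at 13, 11.4 and 12.2 FPKM in WT and 9.56, 7.79 and 7.21 in HO, without overlap (log2 difference -0.56 ± 0.13, adjusted p = 0.0803 by limma).

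Proteoglycans and glycoproteins bind and organise the fibres. Decorin, encoded by Dcn, had the highest FPKM of this group, at 77.0, 74.8 and 64.6 FPKM in WT and 57.3, 50.3 and 46.3 in HO. Sparc, a collagen-binding glycoprotein, was at 27.3, 24.5 and 23.8 in WT and 19.8, 17.9 and 16.6 in HO. In both genes the groups did not overlap, the highest HO library was replicate 1 and the lowest replicate 3. Their log2 differences were -0.49 ± 0.11 for Dcn (adjusted p = 0.0813 by limma) and -0.47 ± 0.10 for Sparc, whose adjusted p = 0.0765 in limma was the smallest of all members.

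Lumican, a relative of decorin encoded by Lum, 47.0 kb from Dcn on chromosome 10, was at 3.27, 2.48 and 2.23 FPKM in WT and 2.19, 1.91 and 1.52 in HO (adjusted p = 0.236 by limma). Biglycan (Bgn) had very even WT values of 33.1, 33.3 and 33.1, with 30.7, 28.6 and 24.8 in HO (log2 difference -0.24 ± 0.10, adjusted p = 0.216 by limma). Neither gene overlapped between the groups in the deposited FPKM, though the gaps were narrow. Without HO replicate 3, the lowest library for both, the Bgn difference was -0.16, and with median-of-ratios scaling it was -0.13. Mgp, an inhibitor of calcification, spread from 0.601 to 1.93 in WT around HO values of 1.14 to 1.24. Fbln1 and Fbn1, which encode fibulin 1 and the microfibril protein fibrillin 1, were at or under 0.315 FPKM in every library.

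The group of cross-linking and turnover genes held inhibitors, a protease and the cross-linking enzyme lysyl oxidase. Timp2, an inhibitor of matrix metalloproteases that also helps to activate Mmp2, was at 4.01, 3.80 and 4.58 FPKM in WT and 3.21, 2.79 and 2.36 in HO, without overlap (log2 difference -0.50 ± 0.14, adjusted p = 0.111 by limma). Timp3, the inhibitor that binds to the matrix, pointed the other way, at 3.87, 4.41 and 3.72 in WT and 4.13, 4.73 and 5.02 in HO. Its groups overlapped (log2 difference 0.19, 95% interval -0.10 to 0.47), and 21.3% of its exonic bases overlap Syn3 on the other strand. Mmp2, the gelatinase made by stellate cells, was at 0.763 ± 0.240 in WT and 0.508 ± 0.0698 in HO (adjusted p = 0.384 by limma). Lox was near the limit of detection, at 3 to 19.1 read equivalents per library, and Timp1, an inhibitor that is switched on in activated stellate cells, at 2 to 6.9 in the 5 libraries where it was seen. It was listed at 0 in WT replicate 3. A difference between the groups was not detectable at this depth for these genes.

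**Figure D2:**
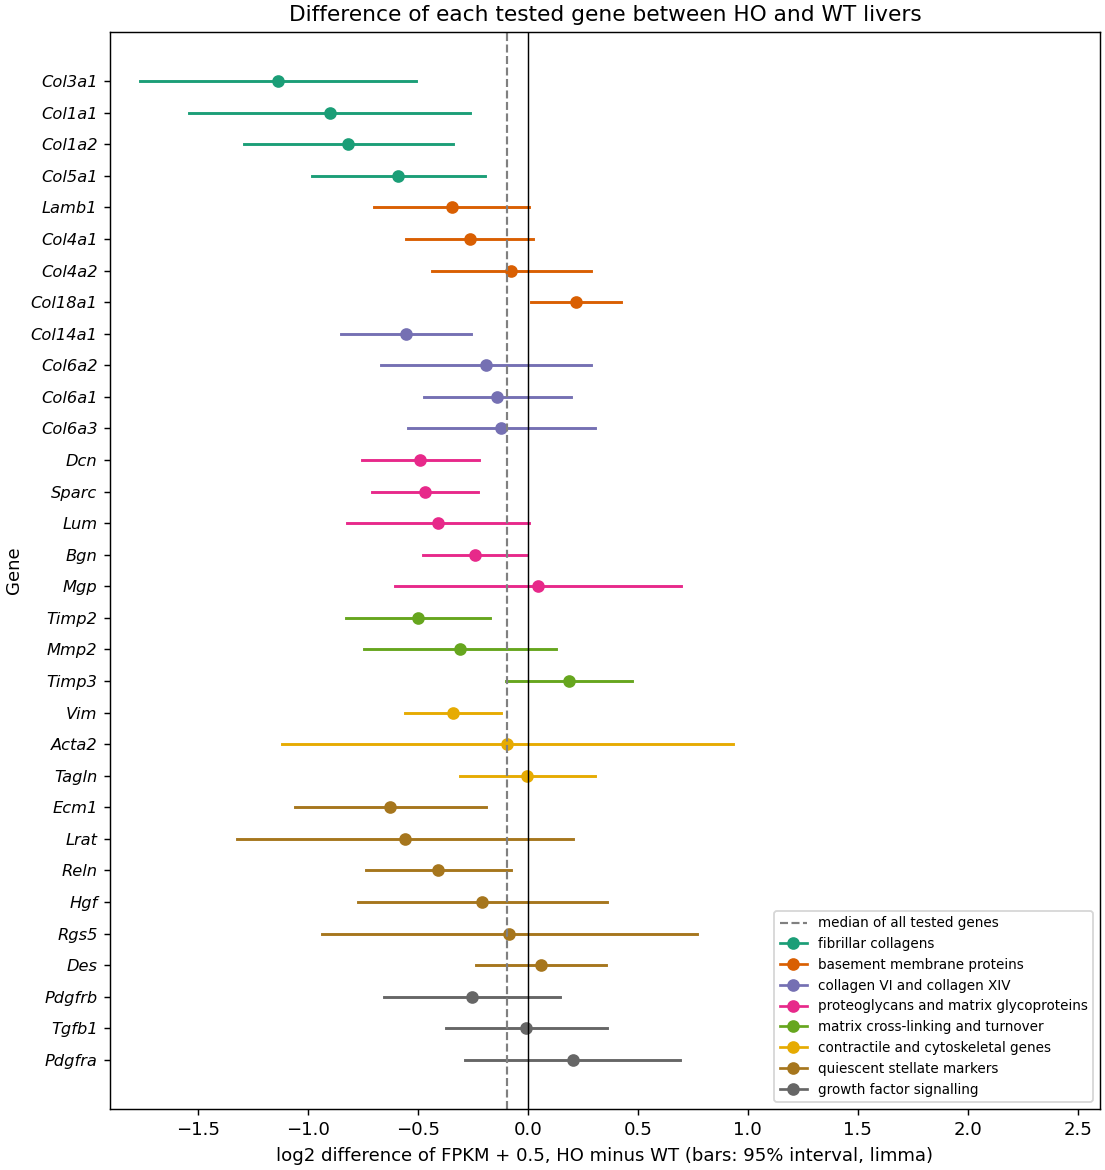
Log2 differences, HO minus WT, of the 32 tested genes with 95% intervals from limma, ordered by role, with 0 as a solid line and the median of all tested genes (-0.09) as a dashed line. The intervals of the 4 fibrillar collagens, Col14a1, Dcn, Sparc, Timp2, Vim and Ecm1 lie wholly below the dashed line, and that of Col18a1 is the only one wholly above 0.

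Contractile and cytoskeletal genes, which mark activated stellate cells and also vessel walls, were separated between the groups in 1 of 3 genes, Vim. Among all tested genes 21.4% were separated with HO lower and 6.42% with HO higher, so 1 of 3 is near the general share. Acta2, smooth muscle actin, was at 1.54, 1.52 and 0.284 FPKM in WT and 1.44, 0.418 and 0.993 in HO. Each group held both high and low libraries, and the log2 difference of -0.09 had a 95% interval of -1.12 to 0.93, so that a large change in either direction could not have been detected. Tagln, an actin-binding protein of smooth muscle, was at 5.88 ± 0.363 in WT and 5.91 ± 0.904 in HO (95% interval -0.31 to 0.31), though 62.4% of its exonic bases overlap Gm48529 on the other strand. Vim, the intermediate filament of mesenchymal and many blood cells, was at 9.81, 9.74 and 10.1 in WT and 7.75, 7.22 and 8.16 in HO. Its groups did not overlap (log2 difference -0.34 ± 0.09, adjusted p = 0.108 by limma). All 3 differences were negative, but those of Acta2 and Tagln lay near 0 and turned positive in other scalings (Acta2 with quantile normalization, Tagln with both).

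Among the markers of quiescent stellate cells, only Ecm1 and Reln were separated between the groups, with HO lower. Ecm1, a secreted protein that holds latent TGF-beta inactive and is also made by hepatocytes, was at 57.7, 48.0 and 36.8 FPKM in WT and 25.3, 31.5 and 34.3 in HO. The groups were separate, although the lowest WT and the highest HO library were close (log2 difference -0.63 ± 0.18, adjusted p = 0.122 by limma). Reln, which encodes reelin, was at 7.09, 6.07 and 7.29 in WT and 5.16, 5.73 and 4.21 in HO (log2 difference -0.41 ± 0.14, adjusted p = 0.162 by limma). Lrat, the enzyme that esterifies retinol for storage, ranged widely in WT, at 4.44, 3.28 and 1.64, against 1.82, 2.46 and 1.32 in HO. WT replicate 3 lay among the HO libraries, and the mean log2 difference of -0.56 was not separable from 0 (95% interval -1.32 to 0.21). It was -0.29 without WT replicate 1 and -0.90 without WT replicate 3.

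The 3 other markers overlapped between the groups. Hgf, hepatocyte growth factor, was at 1.5 ± 0.216 FPKM in WT and 1.28 ± 0.510 in HO, with HO replicate 1 at 0.701 and every other library at or above 1.32. Des, the intermediate filament desmin, was nearly level at 1.31 ± 0.0984 and 1.38 ± 0.0599 (95% interval of the log2 difference -0.24 to 0.35). Rgs5, a marker of pericytes, ran from 5.43 to 10.3 in WT and from 4.42 to 11.9 in HO. The median log2 difference of the 6 markers was -0.31, with 5 negative values, and -0.21 with 4 negative values under median-of-ratios scaling. All HO values lay below all WT values in 2 of the 6 (33.3%), beside 21.4% of all tested genes, so 2 of 6 is near the general share.

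The rule for these genes asks how quiescent markers compare with collagens. Averaged over the 6 markers, log2(FPKM + 0.5) was 2.71, 2.6 and 2.26 in WT and 2.20, 2.39 and 2.06 in HO. Over the 11 tested collagens it was 2.67, 2.35 and 2.37 in WT and 2.28, 1.98 and 1.89 in HO. Both groups were thus lower in HO on average, by 0.30 and 0.42. The markers minus the collagens gave 0.06 ± 0.180 in WT and 0.17 ± 0.243 in HO (SD, n = 3), a difference of 0.11 that is smaller than either SD. It was -0.0088 without HO replicate 2, 0.029 and 0.21 when the third or the second WT library was dropped, and 0.23 without HO replicate 1, so no direction can be read from it. Leaving out Col18a1, an alternative added after the values were seen, gave 0.17. Against the fibrillar collagens alone, a comparison added after the values were seen, the markers stood 0.27, 0.82 and 0.45 higher in WT and 0.80, 1.36 and 1.06 higher in HO. HO replicate 1 lay just below WT replicate 2, so the groups overlapped, and the difference of 0.56 was larger than the SD of 0.28 within each group. No test was made of these averages, because their genes were picked with earlier results known.

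**Figure D3:**
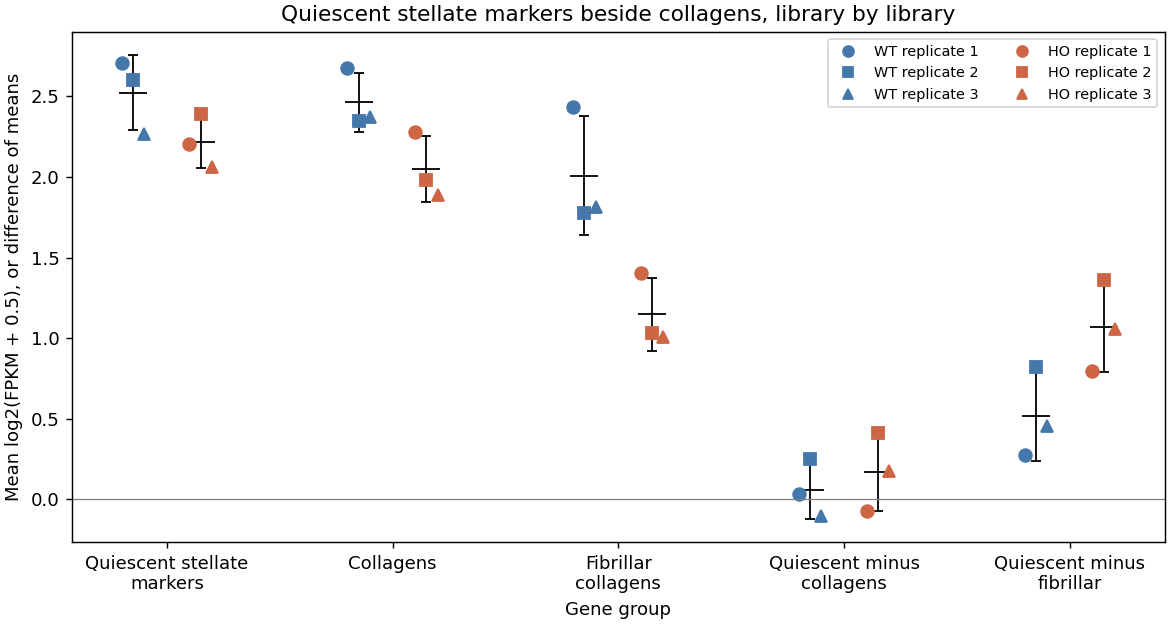
Mean log2(FPKM + 0.5) of the quiescent stellate markers, of all tested collagens and of the fibrillar collagens, and the differences between them, for 3 WT (blue) and 3 HO (orange) libraries. Black marks give the mean ± SD of 3. The WT libraries lie above the HO libraries for the fibrillar collagens (1.78 to 2.43 against 1.00 to 1.41), but not for the markers. For all collagens they also do (2.35 to 2.67 against 1.89 to 2.28), but by a gap smaller than the general shift of -0.09 between the groups. Whether the averages stay separate under other scalings was not examined.

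Of the growth factor genes that drive stellate activation, none was separated between the groups. Among all tested genes 21.4% were separated with HO lower and 6.42% with HO higher. Tgfb1, the main fibrogenic cytokine, was at 4.34, 3.04 and 3.22 FPKM in WT and 3.53, 3.81 and 3.11 in HO. The HO libraries sat inside the WT range, with a log2 difference of -0.01 (95% interval -0.37 to 0.36). Pdgfrb, the PDGF receptor of stellate cells and pericytes, was at 1.55 ± 0.30 in WT and 1.22 ± 0.202 in HO (adjusted p = 0.429 by limma). Pdgfra, the other PDGF receptor chain, was at 0.695 ± 0.131 and 0.896 ± 0.342, with HO replicate 2 the highest at 1.29 (adjusted p = 0.614 by limma).

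Other genes of these pathways, from lists drawn up by role, had no member past the adjusted threshold in limma. Of 15 tested enzymes that modify, fold and cross-link collagen, 7 had a negative and 8 a positive difference, with a median of 0.05 on the log2 scale. At an unadjusted p under 0.05, 1 was lower and 1 higher (6.67% each), beside 16.5% lower and 5.01% higher among all tested genes. Serpinh1, the collagen-specific chaperone, was at 9.16 ± 0.933 FPKM in WT and 7.34 ± 0.233 in HO, and Ppib, a prolyl isomerase of the endoplasmic reticulum, at 216 ± 4.45 and 247 ± 10.4 (adjusted p = 0.177 and 0.208 by limma). Of 16 tested TGF-beta pathway genes the median was 0.01, and 1 was lower (6.25%) and 0 higher at an unadjusted p under 0.05. In both lists the share of lower genes was thus below that of all tested genes. The co-receptor Eng was at 15 ± 0.269 in WT and 11.8 ± 0.559 in HO (adjusted p = 0.0971 by limma).

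PDGF ligands and retinoid handling genes were lower in 5 of 12 at an unadjusted p under 0.05, with a median of -0.29, where 16.5% of all tested genes were lower at that level and 5.01% higher. The 5 include Rarb, at a mean of 1.26 FPKM in WT and 0.442 in HO, which passed the filter of 0.5 FPKM only through WT. Also among the 5, Rdh10, a retinol dehydrogenase, was at 9.88 ± 0.303 and 7.89 ± 0.473 FPKM and Pdgfa, a ligand of Pdgfra, at 4.64 ± 0.615 and 2.96 ± 0.791 in WT and HO (adjusted p = 0.129 and 0.155 by limma). Matrix proteases were split, with 2 of 9 lower and 2 higher at that level. The lysosomal protease Ctsb was at 116 ± 4.79 in WT and 87.9 ± 5.14 in HO, while Ctsl was at 113 ± 6.12 and 152 ± 17.5 (adjusted p = 0.0703 and 0.0912 by limma). Of 14 matrix receptors 2 were lower at that level (14.3%), a share near that of all tested genes. These were the integrin chain Itgb5, at 19.3 ± 1.55 and 13 ± 2.06, and the laminin receptor dystroglycan, Dag1, at 19.1 ± 1.68 and 12.4 ± 3.17 (adjusted p = 0.0842 and 0.111 by limma).

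Markers of the cells that could carry these transcripts were read beside them. Of 16 other stellate markers, 13 had a negative difference and the median was -0.31. Angptl6 was at 15.1 ± 1.81 FPKM in WT and 9.98 ± 1.11 in HO, and the chemokine gene Cxcl12 at 67.1 ± 5.09 and 46.9 ± 8.81 (adjusted p = 0.0803 and 0.114 by limma). The summed FPKM of the list was 189, 193 and 219 in WT and 173, 527 and 476 in HO, higher in 2 of the 3 HO libraries than in any WT library. Steap4, a metalloreductase, was at 47.4 to 79.5 in WT and at 74.3, 419 and 376 in HO, and made up most of the sum in those 2 libraries. Without Steap4, a sum chosen after these values were seen, the list was at 141, 145 and 139 in WT and 98.7, 108 and 100.2 in HO. The defining stellate genes Lhx2, Hand2 and Tcf21 were present in all 6 libraries, whereas Gfap was at or under 0.142 FPKM. The log2 differences of Lhx2, Hand2 and Tcf21 were -0.27, -0.18 and -0.39 (adjusted p = 0.333, 0.582 and 0.288 by limma).

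Portal fibroblasts, the other source of fibrillar collagen, are marked by 12 genes, of which 6 were tested and all 6 had a negative difference (median -0.39). Their summed FPKM ran from 14.4 to 18.4 in WT and 10.6 to 13.4 in HO. Gsn was at 8.11 ± 0.646 and 6.26 ± 0.195 and Fbln2 at 1.00 ± 0.665 and 0.281 ± 0.184 (adjusted p = 0.120 and 0.204 by limma), and the fibroblast progenitor gene Pi16 was at or under 0.0502 in every library. Vascular smooth muscle genes had 3 of 8 tested, with a median of -0.28 and summed levels of 21.6 to 23.4 in WT and 19.3 to 26.0 in HO. Pln and Smtn had the smallest p of them (adjusted p = 0.199 and 0.370 by limma). Pln, at a mean of 0.70 FPKM in WT and 0.418 in HO, passed the filter only through WT. Mesothelial genes summed to 1.12 to 5.53 FPKM in WT and 2.76 to 3.86 in HO. WT replicate 1, the library with the most fibrillar collagen, had the least of them. Krt19 and Upk3b led this list (adjusted p = 0.549 and 0.615 by limma).

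Markers of other liver cells varied too. All 11 Kupffer cell markers had a negative difference (median -0.30), and their summed FPKM was 238 in WT replicate 1, 140 to 151 in the other WT libraries and 125 to 151 in HO. WT replicate 1 was the highest of the 6 libraries in all 11 of these markers, as it was in the 5 fibrillar collagens. Vsig4 and Cd68 had the smallest p among them (adjusted p = 0.182 and 0.194 by limma). Endothelial markers summed to 81.9 to 93.6 in WT and 70.7 to 73.5 in HO, with a median of -0.22 over 11 genes. Ptprb was at 5.05 ± 0.686 and 2.28 ± 0.983 and Fcgr2b at 15.2 ± 1.61 and 10.9 ± 0.652 (adjusted p = 0.0828 and 0.0894 by limma). Cholangiocyte markers had a median of -0.25 over 5 genes and summed to 83.0 to 89.0 in WT and 65.6 to 82.1 in HO, led by Spp1 and Tm4sf4 (adjusted p = 0.206 and 0.251 by limma).

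Hepatocyte markers had a median of 0.05 over 10 genes (-0.04 with quantile normalization and 0.16 with median-of-ratios scaling). They summed to 48294 to 51833 FPKM in WT and 43804 to 48700 in HO. Here 1 gene passed: Cps1, the first enzyme of the urea cycle, rose from 399 ± 41.3 to 729 ± 111 (log2 difference 0.86 ± 0.13, adjusted p = 0.0422 by limma). The call of Cps1 was lost under 7 of the 16 alternatives: no filter, eBayes without a trend, the replicate block, and dropping the first or the second WT library or the second or the third HO library (adjusted p = 0.0867, 0.0674, 0.0571, 0.152, 0.164, 0.105 and 0.0850 by limma). Ttr was at 5405 ± 325 and 3724 ± 350 (adjusted p = 0.0737 by limma). Lymphocyte markers summed to 3.66 to 5.0 in WT and 2.65 to 3.37 in HO, with 2 of 8 tested, Ptprc and Nkg7 (adjusted p = 0.666 and 0.765 by limma). Of the adipocyte markers Adipoq and Plin1 were listed at 0 in all libraries, and 2 were tested, Cfd and Fabp4 (adjusted p = 0.0637 and 0.882 by limma). The part of these cell types in the values of the matrix genes was not tested.

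**Figure D4:**
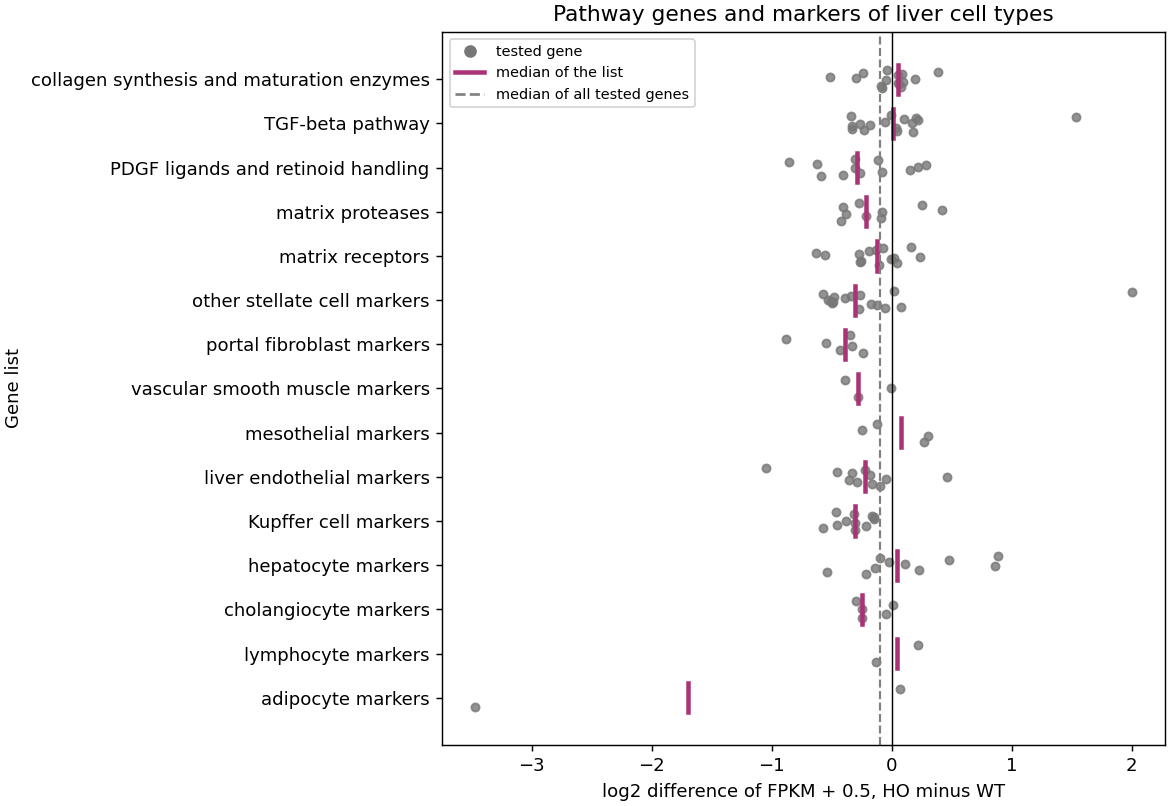
Log2 differences, HO minus WT, of the tested genes of 5 pathway lists and 10 lists of cell type markers (grey points), with the median of each list as a coloured bar and the median of all tested genes as a dashed line. Stellate, portal fibroblast, endothelial, Kupffer and cholangiocyte markers have medians between -0.22 and -0.39, while those of collagen enzymes, TGF-beta pathway genes and hepatocytes lie between 0.01 and 0.05. The other medians are -0.29 (PDGF and retinoid genes), -0.28 (vascular smooth muscle), -0.21 (matrix proteases), -0.12 (matrix receptors), 0.07 (mesothelial) and 0.04 (lymphocyte). The adipocyte median of -1.70 rests on 2 tested genes.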

How the data were processed

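Liver RNA was extracted with Trizol and made into strand-preserving Illumina libraries, per the labels' protocols. The deposited values are FPKM per gene and library, computed by the authors. Per the submitters' processing notes, HISAT2, HTSeq, DESeq2 and StringTie and the build mm10 were used, with no versions or roles, and the sources used here do not say which tool made the FPKM or whether counting used strand. Members overlapping other genes' exons on the opposite strand (Tagln, Timp3, Fbn1, Des and others) are therefore uncertain.

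All 24034 gene identifiers matched GENCODE mouse release M21, the source of positions. Only 36.8% to 40.5% of values between 0.5 and 10 read steps were whole multiples of a 1-read step (tolerance 0.02 reads), so no counts were recovered. The model for log2(FPKM + 0.5) was limma 3.58.1, run in R 4.3.3 (2 groups, no block, eBayes with a trend, filter at a mean of 0.5 FPKM, two-sided). Figures used matplotlib 3.10.9 in Python 3.11.15. Members and lists were chosen with earlier results of these data known. Genes named are all members, the 2 genes of each other list with the smallest p, and any list gene past the threshold. Of the TGF-beta list, 1 gene under that rule is not reported here. Others named for a single value (such as Steap4, Gfap, Pi16, Lhx2, Hand2, Tcf21, Adipoq and Plin1) were chosen after their values were seen.

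The alternatives tried were a pseudocount of 0.1 or 1, a filter at 1 FPKM or none, 2 other scalings, 2 other eBayes settings, array weights (statmod 1.5.0), a replicate block, and leaving out each library.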

Additional observations from a re-analysis of the deposited data

How the results depend on the processing

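No member passed the adjusted threshold, except that 5 fell with array weights (smallest adjusted p = 0.0332 by limma). With a replicate block no member passed either (smallest adjusted p = 0.0593 by limma) and the fibrillar median stayed at -0.86, while the counts over all genes that rose and fell were 10 and 15 instead of 43 and 108. Samples of the same number did not deviate together (correlations of deviations 0.07, -0.03 and 0.01), and not every sample correlated best with its own number. Over all genes, the counts that rose and fell were 70 and 64 under median-of-ratios, 56 and 72 after quantile normalization, 249 and 692 with array weights, 7 and 33 with no filter, 23 and 77 with a pseudocount of 0.1 and 18 and 59 without a trend. They were 3 and 6 without WT replicate 1, 2 and 4 without WT replicate 2, 91 and 171 without WT replicate 3, 76 and 122 without HO replicate 1, 11 and 24 without HO replicate 2 and 3 and 12 without HO replicate 3.

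Of the 32 tested members 24 kept their sign under every alternative. Among group medians, that of the proteoglycans and glycoproteins was -0.24 with no filter and -0.51 to -0.28 with a library left out, and that of the cross-linking and turnover genes was -0.47 with a pseudocount of 0.1, -0.094 with no filter and -0.16 with a filter at 1 FPKM. The contractile median was -0.31 with array weights and -0.34 to 0.089 with a library left out. The marker minus collagen difference was 0.56 with fibrillar collagens only. Signs turned for 8 members. With median-of-ratios scaling Col4a2 was 0.024, Tagln 0.10, Rgs5 0.022 and Tgfb1 0.092. With quantile normalization Col4a2 was 0.014, Acta2 0.040, Tagln 0.080 and Tgfb1 0.083. With array weights Mgp was -0.11 and Tagln 0.049. With a library left out the ranges were -0.17 to 0.044 for Col4a2, -0.26 to 0.0053 for Col6a3, -0.23 to 0.34 for Mgp, -0.55 to 0.20 for Acta2, -0.11 to 0.089 for Tagln, -0.36 to 0.055 for Hgf, -0.40 to 0.27 for Rgs5 and -0.094 to 0.13 for Tgfb1. The cause was not tested. With 3 libraries a group and genes near 0.5 FPKM, precision is limited.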
